A study of Mus musculus with 42 samples.

Results

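The renin-angiotensin genes measured here were Agt, Ren1, Ace, Agtr1a, Agtr2 and Mas1, 6 of 21186 genes on the array. They were taken as the probes that carry one of these gene symbols, which gave 11 of 34891 probes with a symbol. Total RNA of aorta and of skeletal muscle was hybridized to 42 single-colour mouse arrays, 3 per tissue in each of 7 groups of male adult mice. Healthy C57BL/6 mice (G) and spontaneously diabetic KK/Ay mice (A) received saline. The macroangiopathy group (C) was KK/Ay fed a diet rich in fat together with L-NAME, which blocks the nitric oxide synthases, with saline by gavage. The same diet and inhibitor were given to KK/Ay mice of the SHENQI (B), yangyinyiqi (D), huoxue (E) and rosiglitazone (F) groups, with the named herbal preparation or drug in place of saline. All groups but G were KK/Ay, so strain and diabetes cannot be told apart in A vs G and C vs G. Diet and inhibitor were given together and cannot be told apart in C vs A. The arrays measure a piece of tissue, in which fewer cells of a type and less RNA per cell cannot be told apart.

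In this system renin, from the kidney, cuts angiotensinogen to angiotensin I, and the converting enzyme ACE, on endothelium above all, turns it into angiotensin II. The type 1 receptor carries the constriction of vessels and the growth of smooth muscle, and the type 2 receptor and Mas, which binds a shorter peptide, are held to oppose it. Most circulating angiotensinogen comes from liver, with a share from fat and other tissues.

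The probe sequences show what each signal can report. The 5 probes shown were read as coding from an open reading frame and their place in the transcript, since no exon or UTR annotation of this build was used here. They run 5′ to 3′ in lower case, and the capitals mark the stop codon of renin at bases 55 to 57 of the first probe.
Ren1, probe A_51_P316661: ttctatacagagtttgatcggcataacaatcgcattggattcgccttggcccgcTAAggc
Ren1, probe A_52_P544060: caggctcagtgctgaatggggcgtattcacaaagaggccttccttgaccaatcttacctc
Ace, probe A_52_P72297: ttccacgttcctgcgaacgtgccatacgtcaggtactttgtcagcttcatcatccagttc
Agtr1a, probe A_51_P236439: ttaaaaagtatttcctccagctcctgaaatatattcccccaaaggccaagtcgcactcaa
Mas1, probe A_51_P152623: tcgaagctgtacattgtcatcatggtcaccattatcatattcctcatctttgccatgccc

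The file annotation, in mm9, placed the first renin probe at chr1:135256659-135256718 and the other at chr1:135250767-135250826, both on the plus strand. The first renin probe is also assigned to the transcript of Ren2, the near-identical second renin gene that some mouse strains carry and C57BL/6 lacks, so its signal cannot be given to a single renin gene. The second renin probe is assigned to Ren1 transcripts without Ren2. The Ace probe shown spans chr11:105847371-105849357 and thus an intron, the Agtr1a probe lies at chr13:30473748-30473807, and the Mas1 probe at chr17:13034675-13034734 on the minus strand. The single Agt probe lies at chr8:127080661-127080720 on the minus strand, and the single Agtr2 probe at chrX:21065564-21065623. A second Agtr1a probe (A_52_P645862) at chr13:30474638-30474697, a second Mas1 probe (A_52_P655278) at chr17:13034316-13034375 and 2 further Ace probes at chr11:105850398-105850457 and chr11:105851478-105851537 were read as well.

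The scale is the log2 intensity after background correction and quantile normalization over the 42 arrays, on which a difference of 1 is a doubling. It allows a gene to be compared between samples, and not a gene with another gene. Between 20188 and 30269 of 41174 probes per array were well above background, the scanner software's own test of a spot against its local background. A gene was tested where a probe passed this mark on all 3 arrays of a group in the comparison. Mean muscle marker levels kept the labelled tissues apart, save in an aorta array described below. They do not show that the aortas were free of other tissue. The mean of 5 skeletal muscle markers lay between 16.82 and 17.28 in skeletal muscle and between 7.67 and 15.86 in aorta. Some aorta arrays thus came near the skeletal muscle level, with highs of 15.86 in diabetic and 14.50 in rosiglitazone aorta. The marker Myh4 alone reached 16.69 in aorta, above the lowest skeletal muscle array at 16.17. The mean of 5 smooth muscle markers lay between 9.41 and 10.88 in skeletal muscle and, in aorta, at 9.66 in healthy replicate 1 and between 12.39 and 14.63 in the other arrays. That array lay below the smooth muscle level of the other aortas and within the range of skeletal muscle. The main condition differences of the Agt and Ace gene values that rest on it are also given without it. Single-probe values and most correlations were read with it included. The aorta arrays also carried fat, with a brown adipocyte mean from 12.96 to 15.81 against 8.89 to 11.07 in skeletal muscle.

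Of the 6 genes, 4 could be tested. The signal of Agt, Ace and Agtr1a was well above background on all 42 arrays. Ren1 passed on 19 of 21 aorta arrays and 8 of 21 skeletal muscle arrays. Agtr2 passed on 0 of 42 arrays, with log2 intensities from 4.07 to 5.67, and Mas1 on 4 aorta and 2 skeletal muscle arrays, with values from 4.97 to 5.90. These last genes never met the filter, so no difference is given for them, and their signal says only that it was not well above background at this sensitivity.

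**Figure D1:**
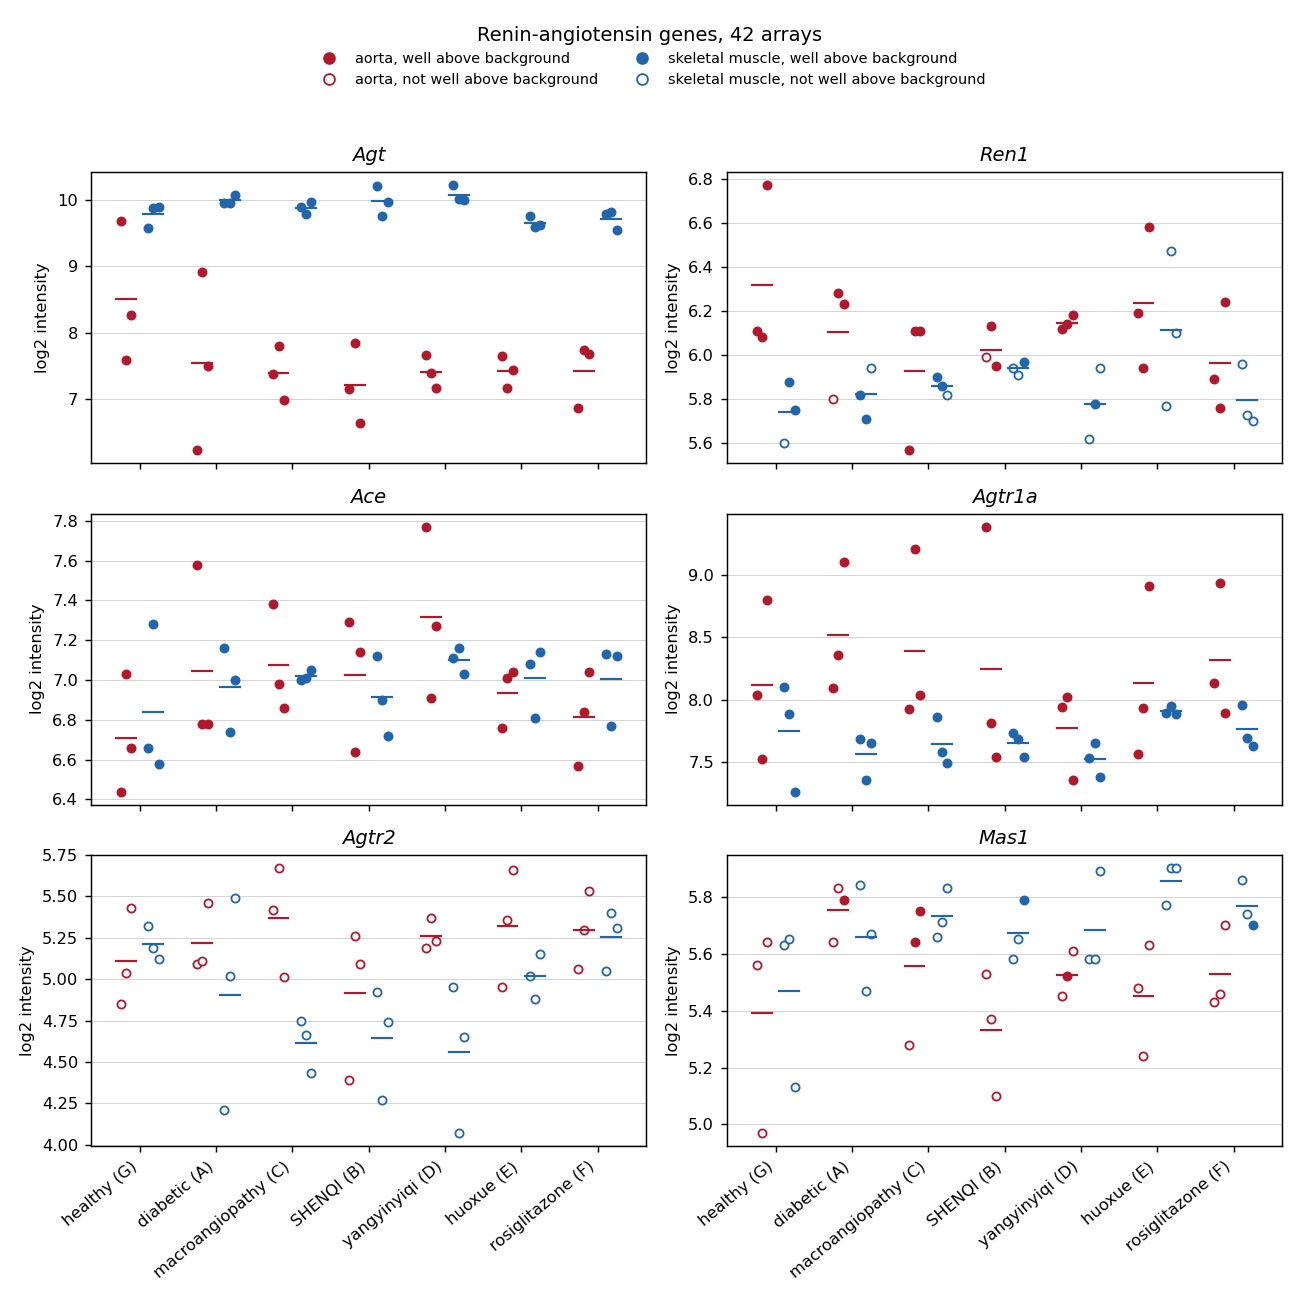
Log2 intensity (vertical axes, a separate range for each gene) of the 6 genes in 7 groups (horizontal axis), with 1 point per array, aorta in red and skeletal muscle in blue, filled where a probe was well above background and open where none was. Short lines are group means of 3 arrays. Agt is high and even in skeletal muscle and low and scattered in aorta, and all points of Agtr2 are open.

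Agt, which encodes angiotensinogen, the substrate of the whole system, had the largest tissue difference of the 4 genes tested. In skeletal muscle its log2 intensity ran from 9.54 to 10.22 with a median of 9.90. In aorta it ran from 6.23 to 9.68 with a median of 7.49. The aorta mean less the skeletal muscle mean was below 0 in all 7 conditions, from -2.77 in B to -1.27 in G, and the tissues did not overlap in 6 of the 7. They overlapped in the healthy mice, where aorta array 1 reached 9.68 and skeletal muscle array 1 lay at 9.58.

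In limma with all 42 arrays and 14 group means, Agt was lower in aorta than in skeletal muscle with a log2 difference of -2.31 (95% interval -2.63 to -1.99, adjusted p = 2.11e-14), or 4.96-fold. Agt and Agtr1a passed at an adjusted p under 0.05 and Ace did not, against a background of 76.9% of the 16167 genes tested, so a tissue difference was the rule on these arrays. Tissue went almost wholly with slide and scan day. Of 11 slides 1 held both tissues, and of 4 scan days 1 did, with 17 aorta arrays and 1 skeletal muscle array. With scan day as a term, a fit that therefore leans on that single array, Agt differed by -2.34 (limma adjusted p = 0.0366). In the healthy arrays alone the Agt difference was -1.27 (limma, adjusted p = 0.185), and without healthy aorta replicate 1 the 42-array value became -2.39.

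Within a tissue, Agt varied very unequally. The pooled SD within groups was 0.74 in aorta and 0.14 in skeletal muscle, beside medians over all genes tested of 0.29 and 0.19. In healthy aorta the arrays read 9.68, 7.59 and 8.26. In diabetic aorta they read 6.23, 8.92 and 7.49, and in macroangiopathy aorta 7.38, 7.79 and 6.99. The healthy group held the highest array, the diabetic group the lowest, and the 3 groups overlapped.

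The treated aortas lay in the same range. Agt read 7.15, 7.84 and 6.64 with SHENQI and 7.66, 7.39 and 7.16 with yangyinyiqi. It read 7.65, 7.17 and 7.44 with huoxue, and 6.87, 7.74 and 7.67 with rosiglitazone. The order of the aorta means ran from G at 8.51 through A at 7.54 and F, E, D and C, all between 7.39 and 7.42, to B at 7.21. The gap between G and A, 0.97, was the only gap between neighbours above the pooled SD of 0.74.

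Levels of muscle markers differed among the aorta arrays with high Agt values. Healthy replicate 1, highest in Agt, had the lowest smooth muscle mean, 9.66, but a skeletal muscle mean of 9.86, below the aorta median of 11.03. Diabetic replicate 2, next at 8.92, had the highest skeletal muscle mean, 15.86, and healthy replicate 3, at 8.26, had 13.44. Diabetic replicate 1, lowest in Agt, had a skeletal muscle mean of 9.34 and a smooth muscle mean of 14.13.

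Over the 21 aorta arrays the Pearson correlation of Agt with the 5 smooth muscle markers lay between -0.77 and -0.68. For Myh11, the smooth muscle myosin heavy chain, it was -0.77 (Spearman -0.58) and fell in size to -0.36 over the 18 arrays in the lower part of the Agt range. With the skeletal muscle markers it lay between 0.18 and 0.35. The rosiglitazone array 1 went against this, with a skeletal muscle mean of 14.50 and Agt at 6.87. With 4 fibroblast markers the correlation of Agt lay between -0.67 and -0.31, and with 4 macrophage markers between 0.01 and 0.73. Whether muscle carried along with the aorta, or another difference in tissue makeup, had a part in the Agt values was not tested.

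**Figure D2:**
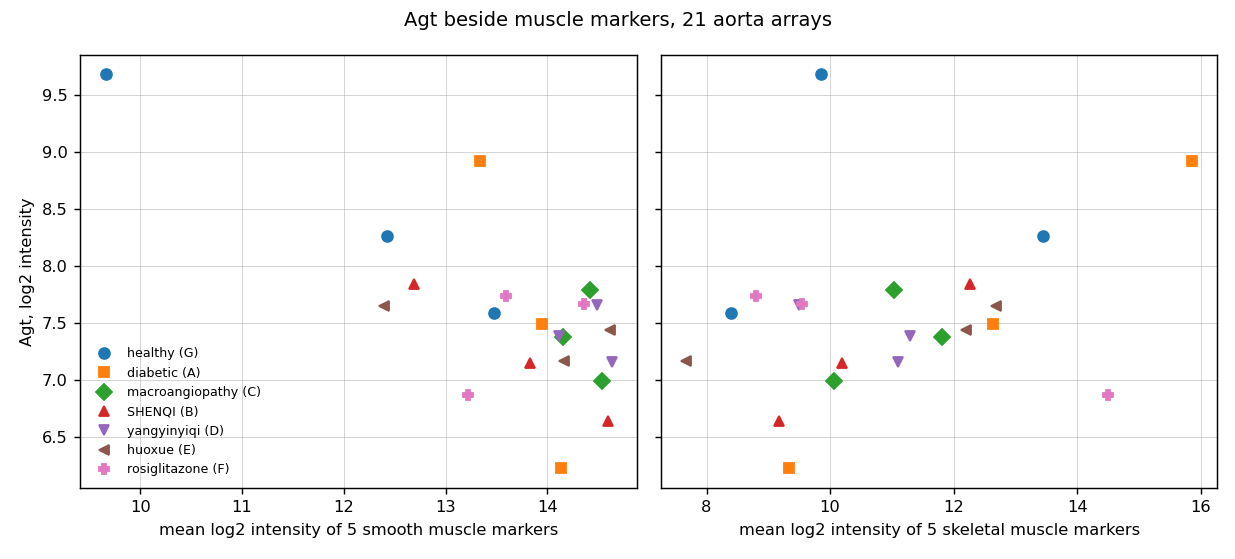
Agt log2 intensity (vertical axes) in the 21 aorta arrays against the mean log2 intensity of 5 smooth muscle markers (left) and of 5 skeletal muscle markers (right), with 1 point per array and a symbol per group. The healthy array at 9.68 stands alone at the low end of the smooth muscle axis, and the diabetic array at 8.92 lies at the high end of the skeletal muscle axis.

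The genes most like Agt over the 21 aorta arrays were Lsm1 (r = 0.84), an RNA-binding protein of messenger decay, Atp6v1g1 (r = 0.84), a subunit of the vacuolar proton pump, and Dnajc7 (r = 0.81), a co-chaperone. Without the 2 arrays farthest from the Agt median these were 0.85, 0.71 and 0.61. In skeletal muscle they included Ctdnep1 (r = 0.84) and Dusp6 (r = 0.83), the last a phosphatase of ERK kinases. These likenesses are descriptions over arrays that share slides and tissue makeup.

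Ren1, which encodes renin, the enzyme that starts the cascade, was close to background. In aorta its log2 intensity ran from 5.57 to 6.77 with a median of 6.11, and in skeletal muscle from 5.60 to 6.47 with a median of 5.86. It met the filter only through aorta groups, so the limma difference of 0.24 (95% interval 0.10 to 0.38) is given as a description. The probes did not share it: the probe also assigned to Ren2 was higher in aorta by 0.58 (95% interval 0.34 to 0.82), and the Ren1 probe differed by -0.10 (95% interval -0.22 to 0.01) in a limma fit over probes. The former passed on 16 aorta arrays and 1 skeletal muscle array, so most of its skeletal muscle values are no more than a bound.

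Healthy aorta array 3 had the highest Ren1 value, 6.77, with huoxue aorta array 3 next among the aortas at 6.58. In skeletal muscle, huoxue array 2 read 6.47 but was not well above background. Ren2, by its own probe, had a correlation with Ren1 of 0.76 over the aorta arrays (Spearman 0.85) and ran from 5.31 to 6.56 there. In healthy aorta, of a strain without Ren2, it read 5.58 to 6.17 and was well above background on 1 of 3 arrays. The Ren2 signal thus cannot be given to Ren2 alone. The Ren1 value includes the probe also assigned to Ren2, so the correlation does not compare separate measures. The genes most like Ren1 in aorta were Colec11 (r = 0.78), a lectin of complement, Exoc3l2 (r = 0.76) and Reln (r = 0.74), the secreted protein reelin. For Exoc3l2 the value fell to 0.45 without the 2 arrays farthest from the Ren1 median.

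Ace, which encodes the converting enzyme, was at the same level in both tissues when its 3 probes were averaged. It ran from 6.44 to 7.77 in aorta and from 6.58 to 7.28 in skeletal muscle, and the limma difference was 0.01 (95% interval -0.16 to 0.18, adjusted p = 0.919). The tissues overlapped in all 7 conditions. One of the probes (A_51_P310523) was well above background on 1 of 42 arrays and pulls the mean of the gene down. Read singly, the brightest probe (A_52_P68028) was higher in aorta by 0.26 (95% interval 0.07 to 0.45, limma adjusted p = 0.012) and the coding probe shown above differed by -0.04 (limma adjusted p = 0.736).

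In aorta, the brightest Ace probe read 7.78, 8.94 and 8.21 in the healthy arrays. It read 9.29, 8.83 and 8.72 in the diabetic arrays, and 9.48, 9.23 and 9.02 in the macroangiopathy arrays. All 3 macroangiopathy values lay above the 3 healthy ones, and the diabetic values overlapped both. The healthy array lowest in Ace is the one with the lowest smooth muscle mean, and over the 21 aorta arrays the gene had correlations of 0.56 to 0.68 with the 5 smooth muscle markers and of -0.02 to 0.59 with 6 endothelial ones. The part of tissue makeup was not tested.

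For C vs G in both tissues, this probe was higher by 0.55 (95% interval 0.08 to 1.02). Its unadjusted limma p of 0.0266 did not hold after adjustment (limma adjusted p = 0.142). The fit of this probe was not repeated without healthy aorta replicate 1. The mean of the gene was higher by 0.27 (95% interval -0.06 to 0.61, limma adjusted p = 0.296), and 0.20 without healthy aorta replicate 1. Creb3l1 (r = 0.87), a transcription factor of collagen secretion, Calu (r = 0.86), a calcium-binding protein of the secretory pathway, and Spsb1 (r = 0.85) were most like Ace in aorta. In skeletal muscle they were Smoc2 (r = 0.78), St6galnac3 (r = 0.77) and Azin1 (r = 0.77).

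Agtr1a encodes the main angiotensin II receptor of vessels. Its gene value ran from 7.35 to 9.39 in aorta, with a median of 8.04, and from 7.26 to 8.10 in skeletal muscle, with a median of 7.68. Aorta was higher by 0.53 (95% interval 0.23 to 0.83, limma adjusted p = 0.0018), or 1.44-fold. With scan day as a term the call was lost (1.33, adjusted p = 0.172). The group means differed in this direction in all 7 conditions, from 0.22 in E to 0.96 in A, but the arrays overlapped in 5 of the 7. The difference came from the second probe, at 0.99 (95% interval 0.59 to 1.39), while the coding probe differed by 0.07 (95% interval -0.15 to 0.29).

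That probe (A_52_P645862) split the aorta arrays. Its log2 intensity was 11.13 in macroangiopathy array 2 and in SHENQI array 1, 10.98 in diabetic array 3, 10.86 in rosiglitazone array 2 and 10.83 in huoxue array 3. The next array, healthy replicate 3, read 9.98, and the other aorta arrays ran down to 8.51. The 5 high arrays thus came 1 each from 5 of the 7 groups, and in skeletal muscle the same probe stayed between 8.08 and 9.25. The pooled SD of the gene within groups was 0.67 in aorta and 0.21 in skeletal muscle.

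The coding probe followed in part. It read 7.28, 7.65, 7.25, 7.01 and 6.98 in those 5 arrays, 7.63 in healthy array 3, and between 6.16 and 6.89 in the other 15. Agtr1b, the second type 1 receptor gene of rodents, was not well above background on most arrays and ran from 5.01 to 6.11 in aorta.

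The genes with the pattern most like that of Agtr1a in aorta were Drd2, a dopamine receptor, Dnm3, a neuronal dynamin, and Slc35f3, each with r = 0.95 over 21 arrays (Spearman 0.90, 0.87 and 0.91). Without the 2 arrays farthest from the Agtr1a median these were 0.93, 0.93 and 0.92, and over the 15 arrays in the lower part of its range 0.81, 0.75 and 0.86. In all, 69 of 14170 genes had r above 0.9 with Agtr1a there, against 0 for Agt, Ace or Ren1 and 0 of 12735 for any member in skeletal muscle.

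Genes of catecholamine-making nerve and gland cells, chosen after these values were seen, varied far more than the receptor did. Th, the rate-limiting enzyme of catecholamine synthesis, ran from 6.17 to 13.23 in aorta (r = 0.83) and from 5.18 to 5.95 in skeletal muscle. Npy, a co-transmitter of sympathetic nerves, ran from 7.48 to 14.57 in aorta (r = 0.83). SHENQI array 1 was highest in Th, at 13.23, and SHENQI array 3 lowest, at 6.17, with Agtr1a gene values of 9.39 and 7.54. The 3 markers of Schwann cells, which sheathe nerves, had correlations of 0.04 to 0.80 with Agtr1a in aorta. The part of nerve tissue in the Agtr1a values was not tested.

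**Figure D3:**
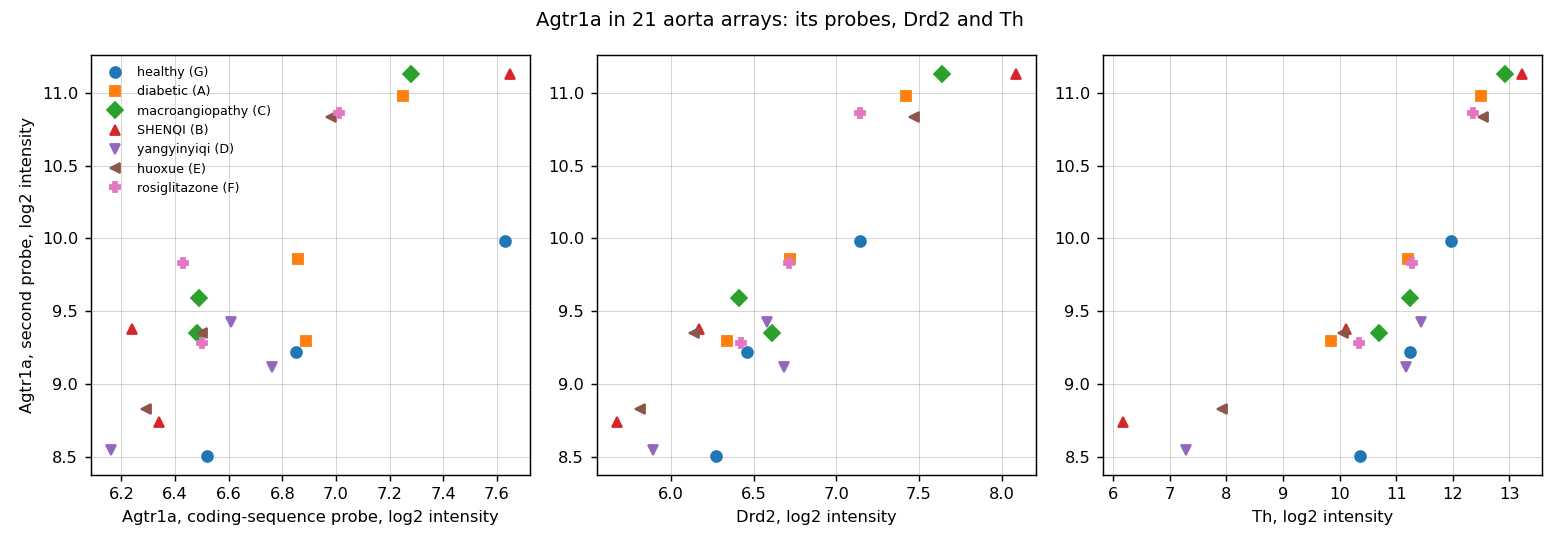
Log2 intensity of the second Agtr1a probe (vertical axes) in the 21 aorta arrays against its coding probe (left), Drd2 (middle) and Th (right), with 1 point per array and a symbol per group. The 5 arrays between 10.83 and 11.13 come from 5 groups and are also the 5 highest in Th.

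In skeletal muscle the genes most like Agtr1a were Cd81 (r = 0.88), a membrane tetraspanin, Tspyl3 (r = 0.88) and Cept1 (r = 0.87), an enzyme of phospholipid synthesis. Of the nerve genes, Th had r = -0.11 and Drd2 0.18 with it there.

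No member passed the test between conditions. The fit of a comparison used its 12 arrays, both tissues, and a term for tissue in limma. By the study's methods both tissues were taken from 3 mice per group, but the labels do not link an aorta to a skeletal muscle sample, so the fit treats arrays that may share a mouse as independent. Of the 4 members tested, 0 passed an unadjusted p under 0.05 in any of the 7 comparisons, and so 0 after adjustment. The share of all genes tested that passed unadjusted was 22.1% for diabetic and 24.3% for macroangiopathy against healthy, and 5.12% for macroangiopathy against diabetic. For SHENQI, yangyinyiqi, huoxue and rosiglitazone, each against macroangiopathy, it was 2.71%, 3.41%, 14.3% and 12%. The median log2 difference of the 4 members lay between -0.05 and 0.09 over the comparisons, beside 0 to 0.03 over all genes.

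The intervals say how large a change in the gene value could have been missed. In A vs G, Agt differed by -0.38 (95% interval -1.36 to 0.60) and Agtr1a by 0.11 (-0.45 to 0.67). In C vs A, the comparison of diet and inhibitor, Agt differed by -0.13 (-0.87 to 0.60), Ace by 0.04 (-0.28 to 0.36), Agtr1a by -0.03 (-0.52 to 0.47) and Ren1 by -0.07 (-0.32 to 0.19). In both comparisons the intervals of Agt and Agtr1a were wider than those of Ace and Ren1. The narrower intervals have limits. The Ace gene value averages in the probe near background (A_51_P310523). Read singly in C vs A, A_52_P68028 differed by 0.18 (95% interval -0.08 to 0.44) and A_52_P72297 by 0.10 (-0.39 to 0.58). Ren1 was close to background, so its interval does not bound a change in the transcript.

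Against the macroangiopathy group, the lowest unadjusted p values were those of Ren1 in E vs C and of Agtr1a in D vs C. Ren1 was higher in E by 0.28 (95% interval -0.04 to 0.60, limma adjusted p = 0.416). Ren1 was well above background on 0 of 3 huoxue skeletal muscle arrays. The probe assigned to Ren1 without Ren2 differed by 0.14 (95% interval -0.07 to 0.36). Agtr1a differed in D by -0.37 (95% interval -0.84 to 0.10, limma adjusted p = 0.999). The yangyinyiqi group was the only KK/Ay group with no aorta array among the 5 high ones. Its aorta values of 7.94, 8.02 and 7.35 overlapped those of C at 7.92, 9.21 and 8.04. With SHENQI, Agt differed from C by -0.04 (-0.47 to 0.38) and with rosiglitazone by -0.07 (-0.43 to 0.30).

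The Agt difference in aorta between KK/Ay and healthy mice rested in part on single arrays. In aorta alone C vs G was -1.12 (95% interval -2.45 to 0.20, limma adjusted p = 0.329), and -0.54 (-1.32 to 0.25) without healthy aorta replicate 1. A vs G in aorta alone was -0.97, and -0.38 without that array. In both tissues C vs G was -0.51 (-1.25 to 0.22, limma adjusted p = 0.367), and -0.18 without healthy aorta replicate 1. For A vs G the value of -0.38 became -0.05 without that array and -0.02 without diabetic aorta replicate 1. Within slide 1, which held 1 diabetic and 2 healthy aortas, the difference was -2.75, and among the aortas of the second scan day, 2 diabetic and 1 healthy, it was 0.62. The direction thus turned between batches, and without the arrays of slides 1, 3 and 11 the A vs G value in both tissues was 0.34.

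**Figure D4:**
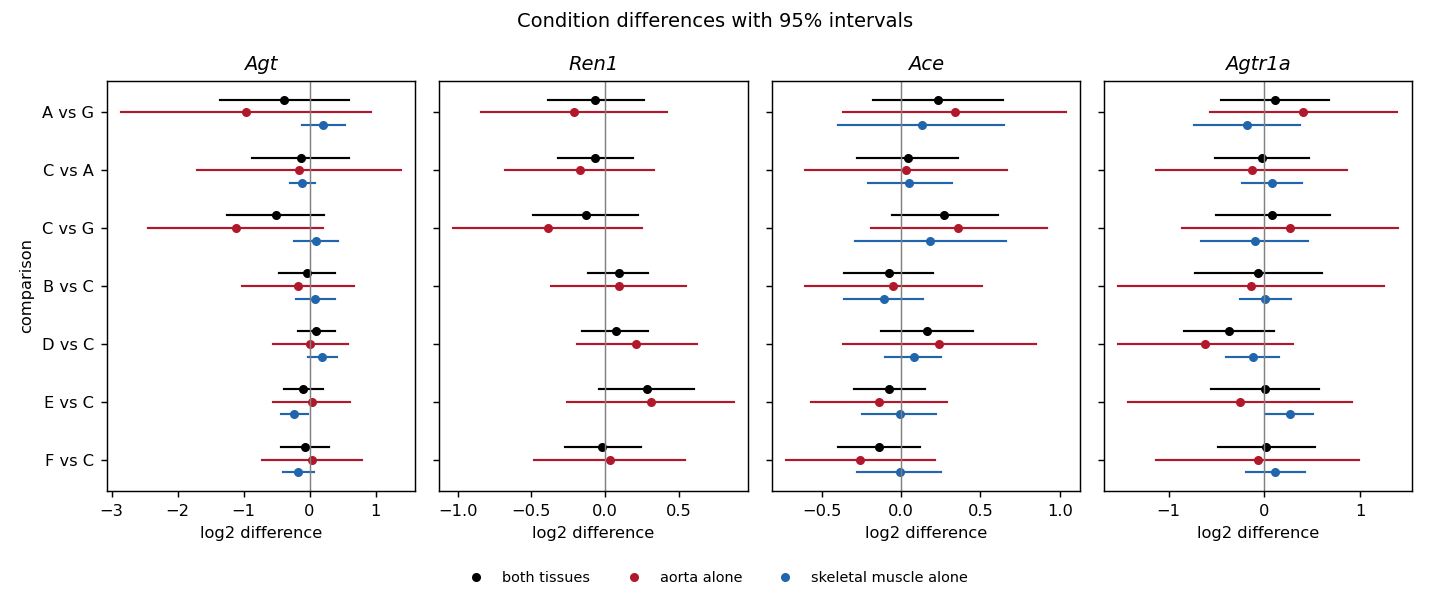
Log2 difference (horizontal axes, first group minus second) of the 4 members tested in 7 comparisons (vertical axis), with points for the limma estimate and lines for its 95% interval, in both tissues together (black), aorta alone (red) and skeletal muscle alone (blue, where tested). All intervals of both tissues together include 0, and those of Agt and Agtr1a in aorta are widest.

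Within a tissue, 0 members passed an unadjusted p under 0.05 in aorta in any comparison. The background there was 11.7%, 18.6%, 3.79%, 1.61%, 1.4%, 2.08% and 7.11% in the order just given. In skeletal muscle it was 22.2%, 21.9%, 7.24%, 2.94%, 3.82%, 45.5% and 29.7% in that order, and 2 of the 3 members tested there passed unadjusted in E vs C. Agt read 9.75, 9.59 and 9.62 in huoxue skeletal muscle against 9.90, 9.78 and 9.97 in macroangiopathy, with no overlap, a difference of -0.23 (95% interval -0.43 to -0.03, limma adjusted p = 0.0773). Agtr1a read 7.89, 7.95 and 7.88 against 7.86, 7.58 and 7.49, a difference of 0.27 (0.02 to 0.51, adjusted p = 0.0883).

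Neither held after adjustment, at which 32.1% of genes passed in that comparison. The 3 huoxue skeletal muscle arrays were all on slide 11 and no macroangiopathy array was, so slide and treatment cannot be told apart there. Agt in the other skeletal muscle groups stayed between 9.54 and 10.22.

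The difference between the tissues in each condition effect was tested with an interaction term. Again 0 members passed at an unadjusted p under 0.05, against 7.13%, 12.4%, 4.37%, 1.92%, 1.83%, 17.5% and 16.6% of genes, again with A vs G first and F vs C last. The lowest was Agt in C vs G, where the change in aorta less that in skeletal muscle was -1.22 (95% interval -2.54 to 0.10, limma adjusted p = 0.444). Without healthy aorta replicate 1 it was -0.63 (-1.39 to 0.13).

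Of 26 other genes of the system and its peptidases, 24 were on the array by symbol and 19 to 22 were tested per comparison. With both tissues in the fit, 1 of them passed after adjustment in a condition comparison. Agtrap, whose protein binds the type 1 receptor and promotes its internalization, was lower in KK/Ay mice. In healthy aorta it read 8.70, 8.71 and 8.67, against 8.18, 7.89 and 7.94 in diabetic and 8.01, 8.09 and 8.11 in macroangiopathy aorta. In skeletal muscle it read 8.29, 8.53 and 8.42 in healthy, 7.67, 7.49 and 7.72 in diabetic and 7.77, 7.70 and 7.78 in macroangiopathy mice.

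The healthy arrays did not overlap with those of any KK/Ay group within a tissue. In limma Agtrap fell by 0.74 on the log2 scale in A vs G (95% interval -0.95 to -0.52, adjusted p = 0.00147) and by 0.64 in C vs G (-0.82 to -0.47, adjusted p = 0.00135), beside 4.51% and 5.17% of all genes that passed after adjustment. These comparisons share the healthy arrays. In C vs G no slide held arrays of both groups, so slide and group cannot be told apart. In A vs G slide 1 held aortas of both groups, but no slide held skeletal muscle of both. The 4 Agtrap probes differed by -0.36 to -0.96 in A vs G, and 1 of them passed after adjustment on its own (-0.84, limma adjusted p = 0.00667). In aorta alone the values of -0.69 in A vs G and -0.63 in C vs G did not pass after adjustment. The calls also ended with the brightest probe (adjusted p = 0.121 in A vs G and 0.208 in C vs G) and, in C vs G, with scan day as a term (0.0576).

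**Figure D5:**
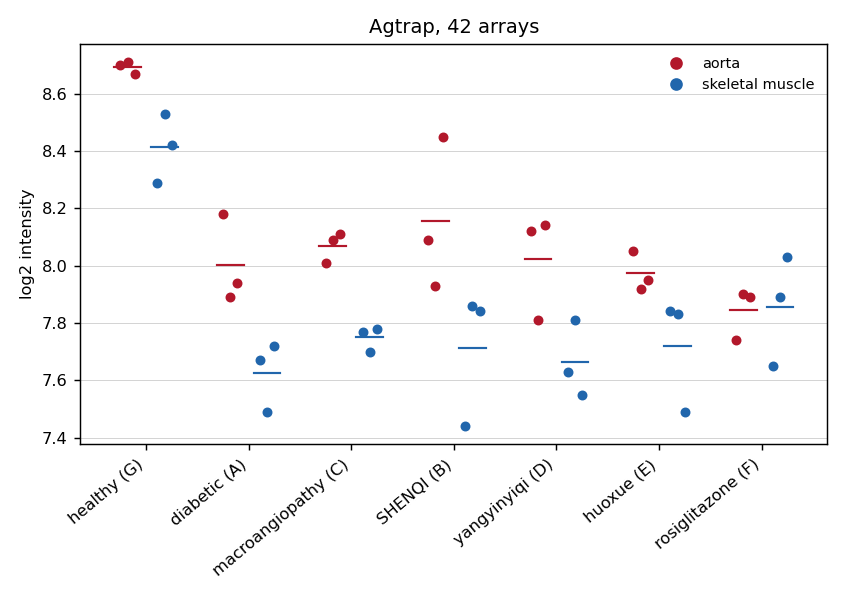
Log2 intensity of Agtrap (vertical axis) in 7 groups (horizontal axis), with 1 point per array, aorta in red, skeletal muscle in blue, and short lines for the group means of 3 arrays. The healthy arrays lie between 8.67 and 8.71 in aorta and between 8.29 and 8.53 in skeletal muscle, above all KK/Ay arrays of the same tissue.

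The rest of this list did not pass after adjustment in any condition comparison with both tissues in the fit. At an unadjusted p under 0.05, 1 was higher and 2 lower in A vs G, 1 and 1 in C vs A, and 2 and 3 in C vs G, Agtrap included. Against the macroangiopathy group the counts were 1 and 0 with SHENQI, 3 and 0 with yangyinyiqi, 1 and 3 with huoxue, and 0 and 1 with rosiglitazone. The median difference of the list was -0.06 in A vs G and in C vs G, beside 0.03 over all genes.

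In skeletal muscle alone more of the list passed after adjustment. In A vs G these were Agtrap and Prcp, a peptidase that removes the last residue of angiotensin II, beside 4.28% of all genes. Prcp read 9.11, 8.61 and 8.59 in healthy skeletal muscle against 7.90, 7.92 and 7.89 in diabetic and 7.70, 7.90 and 7.85 in macroangiopathy. It differed by -0.86 in A vs G (limma adjusted p = 0.0433) and by -0.95 in C vs G (adjusted p = 0.0417). In C vs G, beside 3.35% of genes, Agtrap was lower too, and Bdkrb1, the inducible bradykinin receptor, was higher by 1.13 (limma adjusted p = 0.0465). No slide held healthy skeletal muscle together with diabetic or macroangiopathy skeletal muscle. Slide and group thus cannot be told apart in these comparisons.

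With huoxue 5 of the 19 tested were lower in skeletal muscle, beside the 32.1% of all genes given above. Atp6ap2, the (pro)renin receptor, read 8.19, 7.50 and 8.03 against 9.55, 9.63 and 9.34 in macroangiopathy (-1.60, limma adjusted p = 0.001). Bdkrb1 read 7.19, 6.91 and 6.94 against 8.71, 8.18 and 8.26 (-1.37, adjusted p = 0.001). Ctsd, Enpep and Prep differed by -0.36, -0.36 and -0.35. With rosiglitazone, beside 9.85% of genes, Atp6ap2 and Bdkrb1 passed again, at -0.88 and -1.09. These comparisons share the macroangiopathy arrays, and all 6 treated skeletal muscle arrays were on slides 3 and 11, which held no macroangiopathy array, so slide and treatment cannot be told apart. The interaction with tissue passed for Atp6ap2 in E vs C (1.76, adjusted p = 0.0159) and F vs C (1.39, adjusted p = 0.0161), and for Bdkrb1 in F vs C (1.33, adjusted p = 0.0384), beside 3.05% and 1.51% of genes.

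Between the tissues, 10 of 22 were higher in aorta and 7 lower after adjustment, beside the 76.9% of all genes. Mme, the peptidase neprilysin that makes shorter angiotensins, was higher in aorta by 1.03 (95% interval 0.76 to 1.30, limma adjusted p = 3.61e-08). Rnpep, an aminopeptidase, was higher by 0.57, the carboxypeptidase Ctsa by 0.37, and Atp6ap2 by 0.72. For Atp6ap2 the difference rested on huoxue and rosiglitazone mice, with 2.12 and 1.76 between group means, against 0.09 to 0.41 in the other 5 conditions. Thop1, thimet oligopeptidase, was lower in aorta, with a difference of -1.08 (-1.41 to -0.76, limma adjusted p = 3.68e-07). Between group means it was -0.27 in rosiglitazone mice, where 1 aorta array read 11.19, and -1.42 to -1.13 in the other conditions.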

How the data were processed

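The authors hybridized 42 single-colour arrays, 1 per sample, and deposited the scanner output of each (Agilent Feature Extraction 10.7 per the submitters' processing notes), with median spot and background intensities, a processed signal intensity and quality marks. The mean spot intensity was not used, since 34 of the files do not list it. They also deposited a table of log2 values, which orders the probes of each array as the processed signal does (Spearman 1). Its scaling is not given in the sources used here.

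Here the median intensities were background-corrected with normexp (offset 0, limma 3.58.1 in R 4.3.3), quantile normalized without control spots and converted to log2. Spots marked as outliers were left out, and values were averaged over spots of a probe and then over probes sharing a symbol. Groups came from the sample labels, and the study's methods state that tissue was collected from 3 mice per group. This number limits the precision. Comparisons were fitted with lmFit and eBayes over all genes that met the filter, with Benjamini-Hochberg adjustment over all of them. The code of the fit was run on simulated data with independent noise. That simulation held no slide, scan day or shared-mouse effect, so it says nothing on these limits.

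The members and lists were chosen with earlier results of these data known. The genes named are the members, genes of the wider list past an adjusted p of 0.05 (at most 5 per comparison, by p), the 3 genes with the highest Pearson r with a member that was well above background on at least 18 of 21 arrays of a tissue, and markers where a list moved with a member. The nerve genes were chosen after their values were seen. Some genes that these rules name are not reported here. Marker lists covered smooth and skeletal muscle, white and brown adipocytes, endothelium, fibroblasts, atrial muscle, hepatocytes, kidney, adrenal cortex, macrophages, Schwann cells and blood. Alternatives were an offset of 50, the processed signal scaled to its 75th percentile, the deposited table, no filter, the brightest probe, no tissue term, 1 tissue alone, all 42 arrays, slide as a random block or a batch term, arrays left out, and the replicate number as a block. A scan day term, a fit over probes, and Agt in aorta alone and in the interaction without healthy aorta replicate 1 were added after seeing the data.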

Additional observations from a re-analysis of the deposited data

Results flagged for a closer look

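Condition effects differed between the tissues for genes of the wider list, by the interaction term in limma. The change in aorta less that in skeletal muscle was 1.76 for Atp6ap2 in E vs C (adjusted p = 0.0159), 1.39 for Atp6ap2 in F vs C (adjusted p = 0.0161) and 1.33 for Bdkrb1 in F vs C (adjusted p = 0.0384). In each case the skeletal muscle arrays of the treated group lay below those of the macroangiopathy group, on other slides. For Atp6ap2 in F vs C the aorta arrays differed too, at 10.21 to 10.51 with rosiglitazone against 9.53 to 10.05 in macroangiopathy.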

How the results depend on the processing

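In the 7 condition comparisons 0 members passed after adjustment under every alternative run, the replicate block included. At an unadjusted p under 0.05, where the main count was 0, the count was 1 in A vs G with slides 1, 3 and 11 as a batch term (Ace) and without their arrays (Agtr1a), and 1 in C vs G (Ace) with an offset of 50, the brightest probe, that batch term or the fit over probes. In E vs C it was 2 in skeletal muscle alone (Agt, Agtr1a) and 1 (Ren1) with all 42 arrays or the scan day term. Leaving out single arrays gave 0 to 1 in C vs G (Ace, without healthy skeletal muscle replicate 2) and 0 to 1 in E vs C (Ren1, without huoxue aorta replicate 2 or skeletal muscle replicate 1), and 0 in the others. Interactions at that level counted 1 in C vs G without the filter (Agtr2) or with all 42 arrays (Agt), 1 in E vs C with an offset of 50, the deposited table or the brightest probe (Ace), and 1 in F vs C with the deposited table, the brightest probe (both Ace) or no filter (Agtr2).

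Between the tissues the count of 3 after adjustment (Agt, Agtr1a and Ren1, the last tested only through aorta groups) became 5 without the filter, where Agtr2 and Mas1, not well above background, entered, 1 with scan day as a term (Agt, adjusted p = 0.0366) and 0 in the healthy arrays alone (1 unadjusted), which are 6 arrays. It stayed at 3 under the replicate block and with each array left out. In the fit over probes Ace passed as well, through its brightest probe (limma adjusted p = 0.012). Under the healthy arrays alone the differences were -1.27 for Agt, 0.37 for Agtr1a and 0.58 for Ren1. Ren1 became -0.10 with the brightest probe, the one assigned to Ren1 without Ren2, against 0.58 for the other probe alone. Why the probes differ was not tested. Agtrap kept its sign, but adjusted p rose to 0.121 (A vs G) and 0.208 (C vs G) with the brightest probe and to 0.0576 in C vs G with scan day. The labels do not say that same-numbered arrays share an animal, and in 0 of 14 sets of a comparison and a tissue did all 3 pairs deviate together (r above 0.1, range -0.54 to 0.60). Between the tissues r lay between -0.36 and 0.18. Slide and tissue makeup can also move these values, so they cannot show whether arrays share a mouse. Numbers were taken as names only, since the labels do not link them.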

Other observations

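Marker lists not described above had these mean log2 intensities per array. The adipocyte mean lay between 12.10 and 14.57 in aorta and between 9.99 and 12.85 in skeletal muscle. Over the aorta arrays the 7 adipocyte genes had correlations of -0.43 to 0.17 with Agt. For 4 hepatocyte markers, of the cells that make most circulating angiotensinogen, the mean lay between 5.85 and 7.58 in aorta and between 5.39 and 6.03 in skeletal muscle, where Agt was higher. Ttr, a plasma carrier protein, was well above background on 0 of 42 arrays, and Ahsg, another plasma protein, on all 21 aorta arrays. Kidney markers had means of 4.95 to 5.86 in aorta and 5.17 to 5.82 in skeletal muscle, and Slc34a1, a phosphate transporter of the kidney tubule, was above background on 0 arrays.

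Adrenal cortex markers had means of 5.59 to 6.27 in aorta and 5.80 to 6.21 in skeletal muscle. Star, which brings cholesterol to the steroid-making enzymes, was well above background on all 42 arrays, and Cyp11a1, the first of those enzymes, on 2 aorta arrays and 1 skeletal muscle array. Fibroblast means were 8.99 to 10.82 in aorta and 9.48 to 10.73 in skeletal muscle, macrophage means 8.46 to 10.51 and 8.46 to 10.02, and endothelial means 8.07 to 9.54 and 8.11 to 8.80. Schwann cell means were 6.06 to 7.69 in aorta and 6.69 to 7.84 in skeletal muscle. Atrial muscle means were 6.40 to 12.29 in aorta and 7.29 to 7.85 in skeletal muscle. Blood means were 13.19 to 16.23 and 11.29 to 13.09, and the 2 blood genes had correlations with Agt of -0.59 to -0.53 over the aorta arrays and of -0.73 to -0.59 over the skeletal muscle arrays. The part of these cells in the values of the members was not tested.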
